A study of Mus musculus with 12 samples.

Results

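The genes of mitochondrial fatty acid beta-oxidation were examined in RNA-seq data of the mouse adrenal cortex. They were 35 genes, listed by symbol and matched to the 49585 Ensembl genes counted in each mouse. The list holds the carnitine shuttle, the acyl-CoA dehydrogenases, the enzymes from hydration to thiolysis, the auxiliary enzymes for unsaturated chains, the electron transfer proteins, and acyl-CoA thioesterases. Its members are set by name, and the list was chosen with earlier results of these data known. The adrenal cortex was sequenced in 12 male mice, 1 library per mouse. There were 4 mice on a low-fat diet (LFD, called a normal diet in the labels and numbered 2, 5, 6, and 7), 4 on a high-fat diet (HFD, numbered 1 to 4), and 4 on the HFD with icosapent ethyl, a purified ethyl ester of eicosapentaenoic acid (also numbered 1 to 4). Feeding started at 6 weeks of age and lasted 20 weeks, with 10% of the energy as fat in the LFD and 60% in the HFD. Icosapent ethyl was given during the last 10 weeks. All 12 mice carry a *Fads2* knockout genotype in the labels, whereas the study describes wild-type C57BL/6J mice for these diets. The genotype is shared by all groups and so does not separate them.

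Fatty acids are activated to acyl-CoA outside the mitochondrial matrix, passed through the inner membrane as carnitine esters, and shortened in the matrix in repeated rounds of dehydrogenation, hydration, a further dehydrogenation, and thiolysis. Electrons of the acyl-CoA dehydrogenases reach the respiratory chain through the electron transfer flavoprotein and its dehydrogenase. In steroid-producing cells, mitochondria also hold the side-chain cleavage of cholesterol, and fatty acids stored with cholesterol in lipid droplets are released when the esters are used.

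Between 34785979 and 67295963 counts fell on genes in each mouse. Of the 35 genes, 34 had enough counts to be tested in each of the 3 comparisons, and the exception was *Cpt1b*. Levels are given as CPM, which are counts scaled to a common library size after normalization by the trimmed mean of M values over all 12 mice. The 12 steroidogenic markers of the cortex summed to between 50536 and 109667 CPM in all mice, so that the labelled tissue was evident. The 12 markers of chromaffin cells, the catecholamine cells of the medulla, were also present in all mice, and they summed to 6350 to 22791 CPM in LFD, 3124 to 10156 CPM in HFD, and 5528 to 11036 CPM in icosapent ethyl–treated mice. Chromaffin transcripts were thus measured in unequal amounts. In such bulk samples, fewer cells of a type and less RNA per cell cannot be told apart.

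The beta-oxidation genes took a larger share of the counts in HFD than in LFD mice. The 35 genes together took from 0.454% to 0.528% of the counts in LFD mice, from 0.577% to 0.597% in HFD mice, and from 0.580% to 0.623% in icosapent ethyl–treated mice. The LFD mice lay below all other mice in this share of unscaled counts, while HFD and icosapent ethyl–treated mice overlapped. In the summed CPM, which are scaled, LFD replicate 7 reached 5451 CPM and was level with the lowest HFD mouse at 5452 CPM and above icosapent ethyl replicate 2 at 5337 CPM. In HFD versus LFD mice, *Cpt2*, *Acadl*, and *Hadhb* rose past the threshold (an adjusted p below 0.05 in edgeR, from its quasi-likelihood test and Benjamini-Hochberg correction over 15909 genes), and 0 of the 34 genes fell past it. These 3 calls compare with 1.45% of all genes tested that were called in either direction and 0.974% that were called higher. The log2 fold change was above 0 in 29 of the 34 genes, against 48.2% of all genes. Their median log2 fold change was 0.20, and that of all genes tested was -0.01. At an unadjusted p below 0.05, 15 of the 34 genes were higher and *Cpt1c* was lower, whereas 24.8% of all genes passed in either direction and 12.4% passed as higher. All HFD mice lay above all LFD mice in 11 of the 34 genes, against 7.71% of all genes. Only *Cpt1c* of the 34 had all HFD mice below all LFD mice, against 5.88% of all genes, and 13.6% of all genes separated the groups in either direction. By DESeq2's Wald test, 8 of the 34 were higher and *Cpt1c* was lower at an adjusted p below 0.05, with 12.9% of all genes called in either direction.

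**Figure D1:**
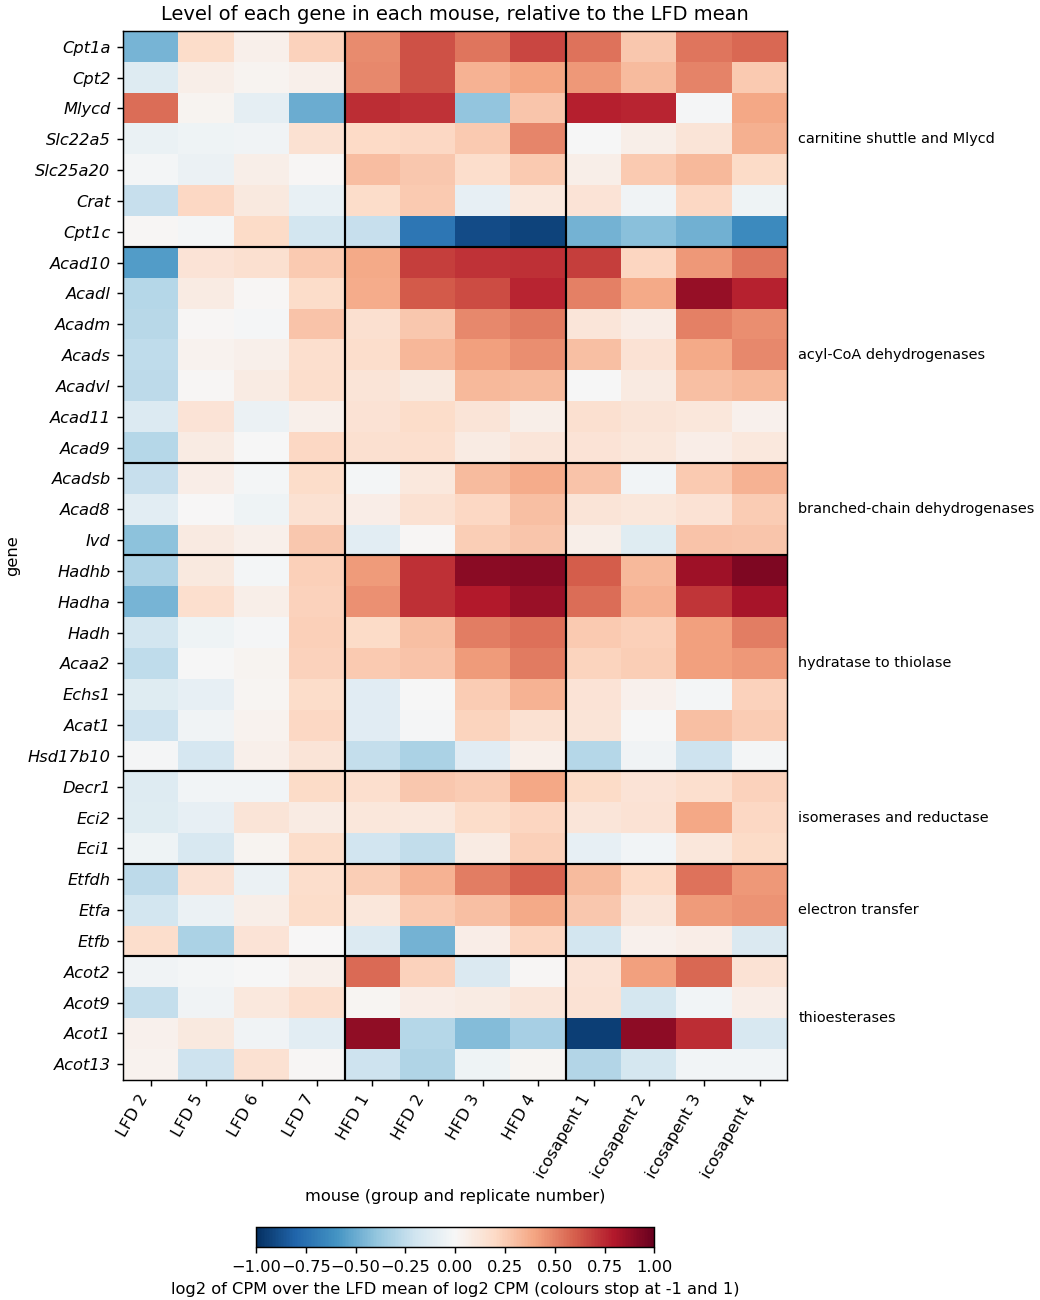
Level of the 34 tested genes (rows, grouped by role) in each of the 12 mice (columns), as log2 CPM minus the LFD mean of log2 CPM. Red is above and blue below the LFD mean. *Hadhb*, *Hadha*, *Acadl*, and *Acad10* are red in all 8 mice on the HFD, *Cpt1c* is blue in all of them, and LFD replicate 2 is the lowest of the 12 mice in 25 of the 34 genes.

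The 3 genes that passed belong to different steps. *Cpt2* is the carnitine palmitoyltransferase of the inner membrane, *Acadl* is the long-chain acyl-CoA dehydrogenase, and *Hadhb* is the thiolase subunit of the trifunctional protein. *Hadha*, which encodes the hydratase and dehydrogenase subunit of the same protein, lies head to head with *Hadhb* on chromosome 5. *Hadha* runs from 30118304 to 30155162 on the minus strand and *Hadhb* from 30155248 to 30184593 on the plus strand of GRCm38 in GENCODE M21, with 85 bases between them. The sequences are those upstream of the genes that passed, which for *Hadhb* is the stretch it shares with *Hadha*, and capitals mark each GC box (GGGCGG or its reverse complement, as bound by Sp1-like factors). They were read from RefSeq promoter windows on GRCm38.p6, 5′ to 3′ on the strand given.
*Hadha* to *Hadhb* gap, chr5:30155163-30155247, plus strand: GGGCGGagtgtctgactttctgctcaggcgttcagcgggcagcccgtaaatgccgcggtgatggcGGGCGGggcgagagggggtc
*Cpt2*, chr4:107923611-107923710, minus strand, up to the annotated start: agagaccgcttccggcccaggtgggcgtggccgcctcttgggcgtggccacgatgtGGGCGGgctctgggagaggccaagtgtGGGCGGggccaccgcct
*Acadl*, chr1:66863310-66863409, minus strand, up to the RefSeq start: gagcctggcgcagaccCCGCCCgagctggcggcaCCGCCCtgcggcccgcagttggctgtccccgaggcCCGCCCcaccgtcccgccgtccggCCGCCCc

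The gap between *Hadha* and *Hadhb* and the *Cpt2* stretch each hold 2 GC boxes, and the *Acadl* stretch holds 4. Promoter windows of 300 bases, from 250 before to 50 after the start, were found for 28 of the 35 genes. A GC box on either strand was in 21 of these 28 windows (75%) and in 38.2% of the windows of 27025 genes. CCAAT was in 15 of 28 (53.6%), against 41.1% of all. AGGTCA, the core motif of many nuclear receptors, was in 5 of 28 (17.9%), against 18.1% of all windows. The longer CAAGGTCA, a motif that the estrogen-related receptors, among others, bind, was in 0 of 28, against 1.76%. The direct repeat of AGGTCA with a spacing of 1 base, the form bound by PPAR and RXR, was in 0 of 28, against 0.0481%. CAAGGTCA and the repeat contain AGGTCA, so these counts overlap. A match gives the letters only, and sites outside the windows or with other letters were not searched.

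Genes of the carnitine shuttle had the widest range of log2 fold changes of the groups, from -0.68 to 0.55. Of the 8 genes, 7 were tested, 6 had a log2 fold change above 0 in HFD versus LFD mice, and *Cpt2* passed. *Cpt2* (ENSMUSG00000028607) returns acylcarnitines to acyl-CoA in the matrix. Its levels were 49.5, 56.3, 55.1, and 55.9 CPM in LFD replicates 2, 5, 6, and 7 and 75.5, 84.0, 68.9, and 71.2 CPM in HFD replicates 1 to 4. The lowest HFD mouse was above the highest LFD mouse. *Cpt2* rose from 54.2 ± 3.18 to 74.9 ± 6.67 CPM (SD, n = 4 per group), or by 0.46 on the log2 scale (SE 0.08, edgeR adjusted p = 0.0418). *Cpt1a*, the outer membrane palmitoyltransferase that malonyl-CoA inhibits, was at 233.7, 368.0, 335.4, and 378.1 CPM in LFD and at 448.4, 502.1, 467.4, and 512.3 CPM in HFD mice. Every HFD mouse exceeded every LFD mouse, but the difference of 0.55 on the log2 scale (SE 0.14) did not pass (edgeR adjusted p = 0.0745), although it did in DESeq2's Wald test (adjusted p = 0.0178).

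*Cpt1c* (ENSMUSG00000007783) had the lowest log2 fold change of the 34 genes, of which 5 were below 0. It encodes the palmitoyltransferase isoform known mainly from neurons, which lies in the endoplasmic reticulum and hardly acts on fatty acid oxidation. Its levels were 13.3, 12.96, 15, and 11.6 CPM in LFD and 11.2, 7.98, 7.06, and 6.91 CPM in HFD mice, so that HFD replicate 1 was just below the lowest LFD mouse and the other HFD mice were well below. The difference was -0.68 on the log2 scale (SE 0.18, edgeR adjusted p = 0.0816), with an adjusted p of 0.00529 by DESeq2. The chromaffin markers had negative log2 fold changes in the same comparison in 12 of 12 cases (median -1.28). With the mean of these markers as a covariate (an alternative added once the data had been seen), the *Cpt1c* difference was -0.42 (edgeR unadjusted p = 0.0731). The same covariate moved the median of the 34 genes from 0.20 to 0.15. In icosapent ethyl–treated versus LFD mice, *Cpt1c* was at -0.50 without the covariate and at -0.40 with it (edgeR unadjusted p = 0.0128). What part chromaffin cells had in the *Cpt1c* difference was not tested.

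The remaining shuttle genes differed by less. *Slc25a20*, the carnitine-acylcarnitine translocase of the inner membrane, was at 63.1 to 68.5 CPM in LFD and 74.1 to 81.4 CPM in HFD mice (log2 fold change 0.25, adjusted p = 0.0785 in edgeR and 0.00311 in DESeq2). *Slc22a5*, the carnitine importer of the plasma membrane, was at 51.8 to 60.2 CPM in LFD and 62.2 to 76.3 CPM in HFD mice (log2 fold change 0.29). Both separated the groups without overlap, and neither passed. Of the *Slc22a5* stretches of 75 bases, 18.0% also occur in *Slc22a21*, a gene of the same strand, so that the *Slc22a5* counts are uncertain. *Crat*, which forms acetylcarnitine, had a log2 fold change of 0.11. *Mlycd* encodes malonyl-CoA decarboxylase, which lifts the inhibition of the carnitine palmitoyltransferases. It varied widely within groups, from 21.03 to 43.8 CPM in LFD and from 22.6 to 49.6 CPM in HFD mice (log2 fold change 0.34, SE 0.28). *Cpt1b*, the muscle isoform, had 0 counts in 10 of 12 mice and at most 0.046 CPM. Of the stretches of 75 bases in its transcripts, 79.4% occur in a second gene of the same strand, *Gm44502*. That gene is not among the genes counted, so whether reads that fit both were left out cannot be told. The count of *Cpt1b* near 0 is therefore not taken as absence.

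All 7 acyl-CoA dehydrogenases other than those of branched-chain amino acid breakdown had log2 fold changes above 0, from 0.12 to 0.60. Their median was 0.34, and *Acadl* passed. *Acadl* (ENSMUSG00000026003, chromosome 1 from 66830839 to 66863277, minus strand, GRCm38) was at 162.2, 209.1, 198.7, and 224.0 CPM in LFD and at 254.9, 301.0, 309.3, and 334.8 CPM in HFD mice. No HFD mouse reached down to the LFD range. The gene rose from 198.5 ± 26.3 to 300.0 ± 33.4 CPM (SD, n = 4 per group), or by 0.59 on the log2 scale (SE 0.12, edgeR adjusted p = 0.0497). *Acad10* had the largest difference of this group at a low level. It was at 7.49 to 13.2 CPM in LFD and 14.3 to 18.2 CPM in HFD mice (log2 fold change 0.60, adjusted p = 0.104 in edgeR and 0.0348 in DESeq2). It shares 14.2% of its stretches of 75 bases with the neighboring paralog *Acad12*, so that its counts are uncertain.

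The dehydrogenases for medium and short chains came next. *Acads*, the short-chain enzyme, did not overlap between groups, at 118.6 to 159.1 CPM in LFD and 159.6 to 195.3 CPM in HFD mice, although the nearest mice were almost level (log2 fold change 0.34, edgeR adjusted p = 0.106). *Acadm*, the medium-chain enzyme and per length of transcript the most abundant of the family, overlapped by 2 HFD mice, at 331.2 to 488.3 CPM in LFD and 447.7 to 574.0 CPM in HFD mice (log2 fold change 0.35). *Acadvl*, the very-long-chain enzyme of the inner membrane, had a log2 fold change of 0.21. *Acad9*, which serves mainly in the assembly of respiratory complex I, and *Acad11* had 0.12 each. The branched-chain dehydrogenases differed as little. They act in amino acid breakdown, and their log2 fold changes were 0.19 for *Acadsb*, 0.17 for *Acad8*, and 0.09 for *Ivd*, with unadjusted p-values of 0.0656 or more by the same test.

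From hydration to thiolysis, the genes of the trifunctional protein had the largest differences in HFD versus LFD mice. *Hadhb* (ENSMUSG00000059447) was at 172.2, 227.8, 210.5, and 251.3 CPM in LFD and at 286.7, 354.8, 397.9, and 401.7 CPM in HFD mice. Every HFD mouse exceeded every LFD mouse. The mean rose from 215.5 ± 33.3 to 360.3 ± 53.5 CPM (SD, n = 4 per group), or by 0.74 on the log2 scale (SE 0.14, edgeR adjusted p = 0.0476), which was the highest of the 34 genes. Its partner *Hadha* (ENSMUSG00000025745) was at 291.4, 450.5, 418.4, and 471.7 CPM in LFD and at 549.9, 663.9, 693.6, and 729.1 CPM in HFD mice. The groups did not overlap, and both genes kept the same order of mice within the HFD group. For *Hadha*, the difference of 0.69 (SE 0.15) narrowly missed the threshold (edgeR adjusted p = 0.0587), and it passed in DESeq2's test (adjusted p = 0.00551). Of the *Hadhb* stretches of 75 bases, 51.0% also occur in the processed pseudogene *Gm13910* on chromosome 2. Reads that fit both places were not counted, so that the *Hadhb* count rests on the rest of the transcript, and *Gm13910* itself was at 1.44 to 3.25 CPM.

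Other members of this group ranged widely. *Hadh*, the dehydrogenase for medium and short chains, was at 352.5 to 472.5 CPM in LFD and 456.8 to 586.3 CPM in HFD mice (log2 fold change 0.38, edgeR adjusted p = 0.105). *Acaa2*, the matrix thiolase, was at 302.3 to 424.3 CPM in LFD and 432.5 to 518.8 CPM in HFD mice (log2 fold change 0.36, adjusted p = 0.104). *Acaa2* separated the groups, and *Hadh* missed this by 1 HFD mouse. *Echs1*, the short-chain hydratase, had a log2 fold change of 0.12, *Acat1*, the acetoacetyl-CoA thiolase, 0.06, and *Hsd17b10*, a dehydrogenase that also serves in isoleucine breakdown and mitochondrial RNase P, -0.16. In these 3 genes, the ranges of the groups overlapped.

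**Figure D2:**
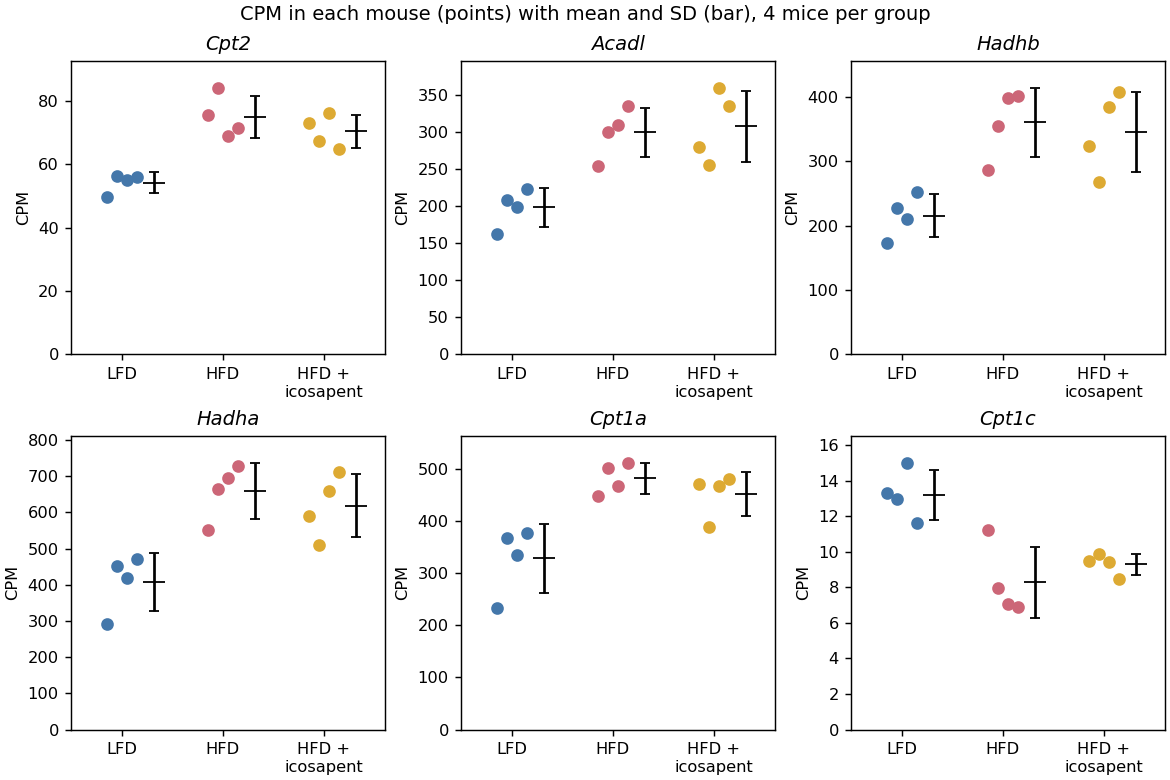
CPM of *Cpt2*, *Acadl*, *Hadhb*, *Hadha*, *Cpt1a*, and *Cpt1c* in each mouse (points), with the mean and SD of the 4 mice of each group (bars). All HFD mice lie above all LFD mice in the plots of *Cpt2*, *Acadl*, *Hadhb*, *Hadha*, and *Cpt1a* and below them in that of *Cpt1c*. The icosapent ethyl–treated mice overlap the HFD range in each plot. Their replicate 2 lies between the LFD and HFD ranges in *Cpt2*, *Hadhb*, *Hadha*, and *Cpt1a*, as does replicate 4 in *Cpt2*. For *Cpt1a*, replicate 2 is at 389.0 CPM, against at most 378.1 CPM in LFD and at least 448.4 CPM in HFD mice.

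The auxiliary enzymes for unsaturated chains did not pass. *Decr1*, the dienoyl-CoA reductase, was at 114.1 to 142.1 CPM in LFD and 140.2 to 162.9 CPM in HFD mice, where only the lowest HFD mouse lay within the LFD range (log2 fold change 0.26, edgeR adjusted p = 0.118). The enoyl-CoA isomerases *Eci2* and *Eci1* had log2 fold changes of 0.15 and -0.03. In electron transfer, *Etfdh*, the dehydrogenase that hands electrons to ubiquinone, separated the groups at 98.1 to 133.3 CPM in LFD and 139.9 to 176.9 CPM in HFD mice (log2 fold change 0.42, adjusted p = 0.0897 in edgeR and 0.0438 in DESeq2). *Etfa*, the larger subunit of the flavoprotein, was at 152.0 to 196.0 and 186.3 to 223.9 CPM (log2 fold change 0.26, adjusted p = 0.155). *Etfb*, its partner in a dimer of equal parts, had a log2 fold change of -0.08 at only 5.04 to 8.09 CPM over the 8 mice. The transcripts of *Etfb* share 52.5% of their stretches of 75 bases with *Gm45233*, an overlapping gene of the same strand, and reads that fit both genes were left out. Its low count is therefore no measure of its level relative to *Etfa*.

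The thioesterases, which split acyl-CoA and so release fatty acids, did not pass in either direction. Log2 fold changes in HFD versus LFD mice were 0.18 for *Acot2*, 0.06 for *Acot9*, 0.06 for *Acot1*, and -0.14 for *Acot13*, with unadjusted p-values of 0.258 or more by edgeR's test. *Acot1*, the cytosolic enzyme, was even in LFD mice, at 5.13 to 5.92 CPM, and uneven on the HFD, at 10.2, 4.53, 4.08, and 4.38 CPM without icosapent ethyl and 2.87, 10.3, 9.22, and 4.94 CPM with it. *Acot2*, its mitochondrial paralog, was at 13.3 to 14.1 CPM in LFD and 12.3 to 20.1 CPM in HFD mice. The mouse with the highest level in the HFD group was replicate 1 for both genes, and they share 19.4% of the *Acot1* and 20.5% of the *Acot2* stretches of 75 bases.

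**Figure D3:**
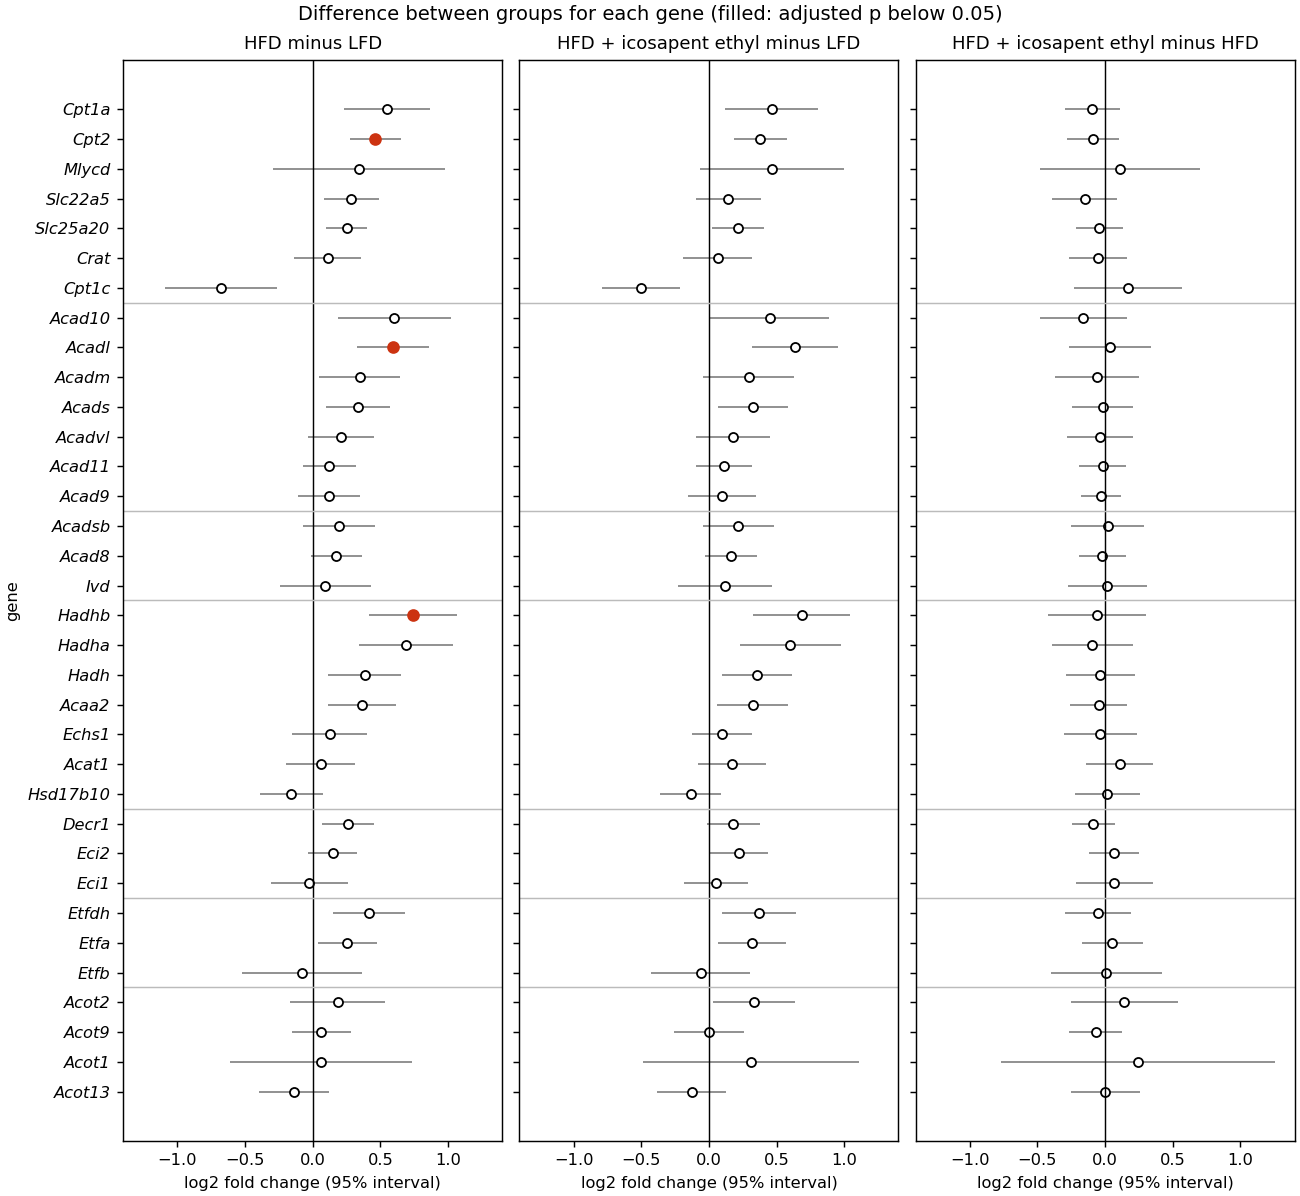
Log2 fold change of each tested gene (points) with its 95% confidence interval (lines) for HFD versus LFD, icosapent ethyl–treated versus LFD, and icosapent ethyl–treated versus HFD mice, grouped by role. Filled points are the genes past the threshold, which were *Cpt2*, *Acadl*, and *Hadhb* in HFD versus LFD mice. The median was 0.20 and 0.22 in the comparisons with LFD mice and -0.03 in the comparison of both HFD groups.

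Levels were also compared per length of transcript. In LFD mice, *Acaa2* was highest at 240.01 ± 33.0 CPM per kilobase (SD, n = 4), followed by *Hadh* at 225 ± 28.2 and *Acadm* at 198 ± 31.4 CPM per kilobase. These 3 genes were measured in the same mice, so the SDs between mice do not tell whether their levels differ. *Hadhb*, *Acadl*, and *Hadha* were at 105, 104, and 102 CPM per kilobase in LFD and at 176, 157, and 164 CPM per kilobase in HFD mice. The *Hadhb* level is per full transcript length, although 51.0% of its stretches of 75 bases also occur in *Gm13910*. Reads that fit both were not counted, so its place beside *Acadl* and *Hadha* is uncertain. *Cpt1a* was at 76.2 CPM per kilobase in LFD mice, *Slc25a20* at 36.8, and *Cpt2* at 22.8. At the low end, leaving aside *Cpt1b*, were *Cpt1c* at 4.73, *Acad10* at 2.94, and *Acot1* at 2.43 CPM per kilobase. Of their stretches of 75 bases, 14.2% in *Acad10* and 26.0% in *Acot1* also occur in other genes, so these 2 levels are uncertain.

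**Figure D4:**
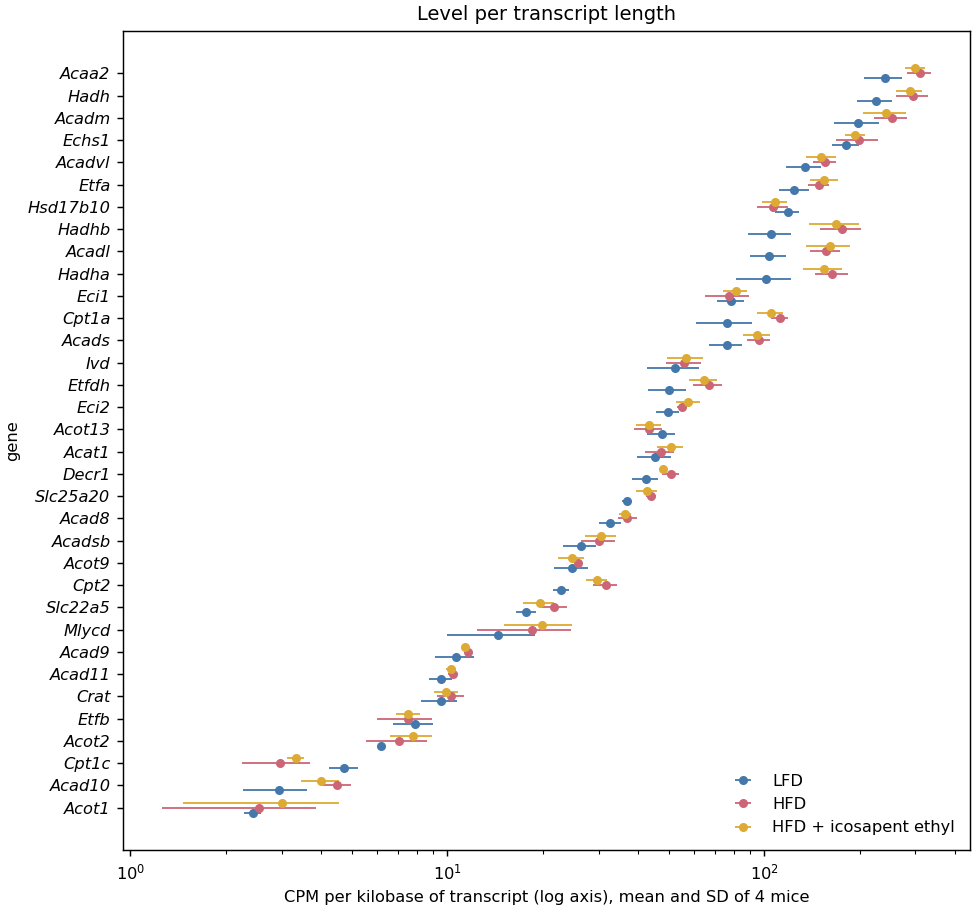
Mean level per kilobase of transcript with the SD of 4 mice, on a log axis, for LFD, HFD, and icosapent ethyl–treated mice, ordered by the LFD level. The levels span from 2.43 CPM per kilobase for *Acot1* to 240.01 for *Acaa2* in LFD mice. *Hadhb*, *Acadl*, and *Hadha* are shifted to the right in both HFD groups. Reads that fit both *Hadhb* and *Gm13910* were not counted, so the place of *Hadhb* in this order is uncertain. Places of other genes with shared stretches of 75 bases are uncertain as well. Such genes include *Etfb* (52.5% shared), *Acot1* (26.0%), and *Acot2* (21.2%).

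Calls changed when single mice were left out, among these genes and among all genes, whereas the 3 genes that passed kept their direction. The log2 fold change ranged from 0.41 to 0.50 for *Cpt2*, from 0.51 to 0.67 for *Acadl*, and from 0.65 to 0.84 for *Hadhb* over the 8 fits without 1 mouse. *Cpt2*, *Acadl*, and *Hadhb*, joined by *Hadha* and *Cpt1c*, passed when HFD replicate 1 was left out, where 918 of all 16096 genes did. When any of the other 7 mice was left out, 0 of the 34 genes passed, as did 78 of all 16021 genes without LFD replicate 2 and 0 of all genes in each of the other 6 fits. LFD replicate 2 had the lowest level of the 12 mice in 25 of the 34 genes, and HFD replicate 4 the highest in 14. Without LFD replicate 2, the log2 fold change was above 0 in 26 of the 34 genes, with a median of 0.16. By mouse, the median difference from the LFD mean over the 34 genes was -0.18, 0.00, 0.03, and 0.18 on the log2 scale in LFD replicates 2, 5, 6, and 7 and 0.16, 0.22, 0.25, and 0.31 in HFD replicates 1 to 4. LFD replicate 7 thus lay above HFD replicate 1.

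The markers of other cells were set beside these genes. LFD replicate 7, the LFD mouse with the highest median, had 6350 CPM of chromaffin markers, and LFD replicates 5, 2, and 6 had 12740, 19715, and 22791 CPM. The order did not hold within every group, since LFD replicate 6 had the most chromaffin markers and a higher median than LFD replicates 2 and 5, and icosapent ethyl replicate 3 had the most of its group, at 11036 CPM, and the highest median of it, at 0.30. With the chromaffin covariate, 0 of the 34 genes passed, as did 0 of all 15909 genes. At an unadjusted p below 0.05 in edgeR's test there were 5 of the 34 genes and 1440 of all 15909. The median of the 34 genes was 0.15, against 0.02 for all genes. The log2 fold changes were 0.40 for *Cpt2*, 0.43 for *Acadl*, 0.56 for *Hadhb*, and 0.50 for *Hadha* in that fit. With the mean of 10 white adipocyte markers as a covariate, 15 of the 34 genes passed, 14 of them higher, and 2542 of all 15909 genes did, against 230 without a covariate. These adipocyte markers summed to 249.1 to 454 CPM in LFD and 389 to 505 CPM in HFD mice. They did not move together. In HFD versus LFD mice, 7 of the 10 had a log2 fold change above 0 and 3 below, from -2.14 to 3.19. Skeletal muscle markers summed to at most 4.72 CPM in any mouse. Brown adipocyte markers without *Kcnk3*, a channel that the adrenal cortex also expresses and that was left out after its level was seen, summed to 11.96 to 36.8 CPM in LFD and 8.48 to 19.1 CPM in HFD mice. Markers of macrophages (10 genes) summed to 748 to 1100 CPM in LFD and 531 to 616 CPM in HFD mice, and 4 of them fell past the threshold, against 1.45% of all genes called in either direction. Capsule and mesothelial markers summed to 225 to 411 and 134 to 199 CPM, and endothelial markers to 1073 to 1598 and 1142 to 1462 CPM. The 12 cortex markers were themselves above 0 in 12 of 12 cases in HFD versus LFD mice, with a median of 0.50. What part the share of any cell type had in the differences of the beta-oxidation genes was not tested.

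**Figure D5:**
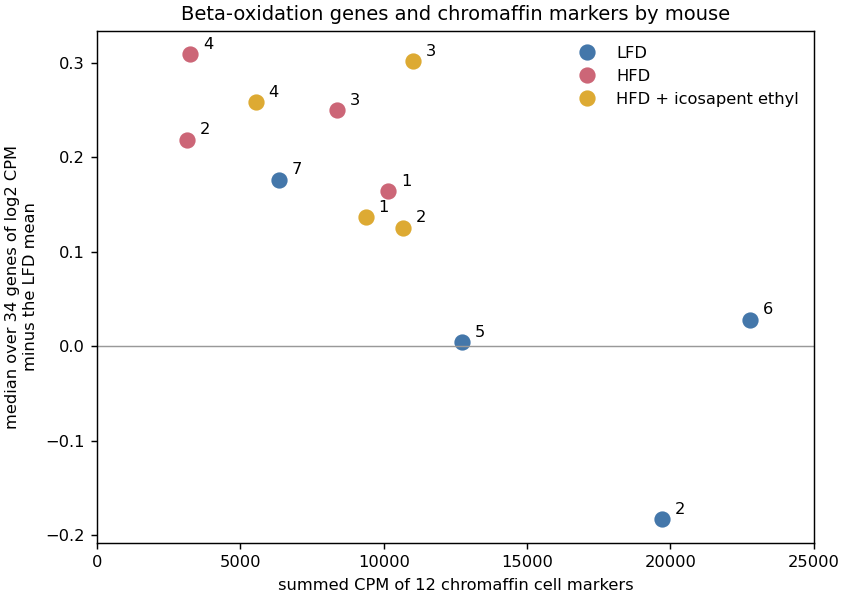
Summed CPM of 12 chromaffin markers (horizontal axis) and the median difference of the 34 beta-oxidation genes from the LFD mean on the log2 scale (vertical axis) in each mouse, labelled by replicate number. LFD replicates 2, 5, and 6 have 12740 to 22791 CPM of chromaffin markers and the lowest medians, from -0.18 to 0.03, and LFD replicate 7, at 6350 CPM and 0.18, lies among the mice on the HFD.

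Icosapent ethyl was given on the HFD because the study asked whether it lowers adrenal steroid hormones in obese mice, and the comparison here is of the beta-oxidation genes. Between icosapent ethyl–treated and HFD mice, 0 of the 34 genes passed, as did 0% of all 15913 genes tested. At an unadjusted p below 0.05 there were also 0, against 1.39% of all genes, and by DESeq2 0, against 0.0377%. In 0 of the 34 genes did the groups separate, against 1.09% of all genes. The log2 fold change was above 0 in 14 of the 34, against 51.1% of all genes, and the median was -0.03, against 0.00. Without scaling of the library totals, it was above 0 in 27 of the 34, with a median of 0.04, when the median of all genes was 0.06. The lowest p-values belonged to *Slc22a5*, *Decr1*, and *Acad10*, with log2 fold changes of -0.15, -0.09, and -0.16 (unadjusted p = 0.191 or more by edgeR's test). *Cpt2* was at 73.0, 67.2, 76.1, and 64.9 CPM in icosapent ethyl–treated mice, which overlaps the HFD range, and the difference was -0.09 with a 95% confidence interval from -0.28 to 0.10. For *Acadl*, the levels were 279.6, 255.9, 360.1, and 336.1 CPM, and the difference was 0.04 with an interval from -0.26 to 0.34. For *Hadhb*, they were 324.1, 267.7, 383.6, and 406.6 CPM, and the difference was -0.06 with an interval from -0.42 to 0.30.

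Icosapent ethyl–treated mice were also set against LFD mice, which are the same 4 mice as above, so that both comparisons share them. Here 0 of the 34 genes passed, as did 0% of all 15935 genes, while 14 were higher and *Cpt1c* was lower at an unadjusted p below 0.05, against 14.0% of all genes in either direction. By DESeq2, *Acadl*, *Cpt2*, *Hadha*, and *Hadhb* were higher and *Cpt1c* lower at an adjusted p below 0.05, against 3.08% of all genes. All treated mice lay above all LFD mice in 7 of the 34 genes and below them in *Cpt1c*, against 7.73% of all genes in either direction. Log2 fold changes were above 0 in 30 of the 34, against 49.4% of all genes, with a median of 0.22, against 0.00. The lowest p-values were those of *Acadl* (log2 fold change 0.64, SE 0.14), *Cpt2* (0.38, SE 0.09), and *Hadhb* (0.68, SE 0.16), with adjusted p-values of 0.184 to 0.188 by edgeR's quasi-likelihood test. *Cpt1c* was at 9.47, 9.85, 9.44, and 8.46 CPM in the treated mice.

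Genes around the pathway behaved unevenly in HFD versus LFD mice. Of 12 tested targets of PPARα outside the spiral, 3 rose past the threshold and 0 fell, where 0.974% of all genes were called higher and 1.45% in either direction. *Acsl1*, the long-chain acyl-CoA synthetase that supplies the shuttle, had a log2 fold change of 0.76 (SE 0.09, edgeR adjusted p = 0.0293). *Plin2*, the coat protein of lipid droplets, rose by 0.49 on the log2 scale (edgeR adjusted p = 0.0398). The median of these 12 targets was 0.05. Of 12 regulators and malonyl-CoA enzymes, 17 genes of ketone use and of the ends of amino acid and odd-chain breakdown, and 10 genes of flavin supply and complex I assembly, 0 passed in either direction. The lowest p-values of these lists belonged to *Lpin1*, a phosphatidate phosphatase and coactivator (log2 fold change -0.71, adjusted p = 0.0617), *Oxct1*, the transferase of ketone use (-0.30, adjusted p = 0.0810), and *Etfrf1*, a regulator of the electron transfer flavoprotein (0.31, edgeR adjusted p = 0.0816). In icosapent ethyl–treated versus HFD mice, 0 genes of these lists passed. *Plin2* had the lowest p of them there, at -0.27 (edgeR unadjusted p = 0.0148), with all treated mice below all HFD mice. It was the only gene of these lists with an unadjusted p below 0.05, where 1.39% of all genes had one. These groups separated in either direction in 1.09% of all genes.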

How the data were processed

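The authors trimmed reads with cutadapt, aligned them to GRCm38 with STAR, counted them on GENCODE M12 genes with HTSeq 0.6.1p1 using the reverse strand, and deposited raw read counts per gene and mouse. Reads with several alignments or fitting 2 genes were not counted. Symbols came from GENCODE M21. Tests used the quasi-likelihood method of edgeR 4.0.16 (R 4.3.3) with robust fitting, TMM scaling, and filterByExpr at a count of 10. Adjustment was by Benjamini-Hochberg over all genes, calls were made at 0.05, and each fit held only the mice of its groups, with DESeq2 1.42.0 as an alternative. The members, lists, and rule for named genes (all members in HFD versus LFD mice, elsewhere the members past the threshold or with the 3 lowest p, and from each further list the genes past the threshold or with the lowest p) were chosen with earlier results of these data known. *Ppara* targets and other lists were written from general knowledge. The values of 1 gene that this rule names are not reported here. Other alternatives were DESeq2's size factors, unscaled totals, no filter, at least 10 counts per mouse, a joint fit of all 12 mice, marker scores as covariates, a threshold of 0.1, and leaving out each mouse. Deviations of same-numbered HFD and icosapent ethyl–treated mice from the mean of their group had correlations of 0.238, 0.116, 0.344, and 0.632, so the replicate block was fitted as well. Pairs of mice with unlike numbers ranged from -0.635 to 0.599, so these correlations do not establish a pairing. The labels do not say what a number marks. In a simulation of HFD versus LFD that altered 200 of 15909 genes 2-fold, 84 were recovered, with 4 false calls. No pair of libraries was a copy.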

Additional observations from a re-analysis of the deposited data

Results flagged for a closer look

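In 4 of the 102 sets of 4 mice (34 genes in 3 groups), 1 mouse lay far from the other mice of its group by Dixon's test. Chance flags about 1 in 20 such sets. *Cpt1a* was at 389.0 CPM in icosapent ethyl replicate 2, and at 467.9 to 480.9 CPM in the other mice of that group. *Slc22a5* was at 60.2 CPM in LFD replicate 7, against 51.8 to 52.9 CPM in the other LFD mice. HFD replicate 1 was far from the other HFD mice in *Acad10*, at 14.3 against 17.8 to 18.2 CPM, and in *Acot1*, at 10.2 against 4.08 to 4.53 CPM.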

How the results depend on the processing

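In HFD versus LFD mice, the 3 genes past the threshold became 1 with DESeq2's size factors, 9 with DESeq2's Wald test, 6 with all 12 mice in 1 fit, 15 with the adipocyte covariate, 0 with the chromaffin covariate (chosen after seeing the data), and 8 at a threshold of 0.1. Of all genes, 230 passed, and 179, 2019, 556, 2542, and 0 did in the first 5 of these alternatives. All genes were not counted at the threshold of 0.1, so the 8 genes there have no share to be set against. When 1 mouse was left out, 0 to 5 of the 34 and 0 to 918 of all genes passed. In icosapent ethyl–treated versus LFD mice, 5 passed by DESeq2 instead of 0, against 3.08% of all genes by DESeq2. Unscaled totals moved the median of all genes to -0.11 in HFD versus LFD mice, where 25 of the 34 genes were above 0, with a median of 0.11. Genes near 0 turned their direction. With unscaled totals, *Acat1* was at -0.046, *Acot1* at -0.0037, *Acot9* at -0.034, and *Ivd* at -0.0090. With the chromaffin covariate, *Acat1* was at -0.024, *Acot9* at -0.0071, *Ivd* at -0.056, and *Etfb* at 0.042, and with the adipocyte covariate *Acot1* was at -0.086 and *Eci1* at 0.036. With 1 mouse left out, *Acat1* ranged from -0.0030 to 0.13, *Acot1* from -0.35 to 0.20, *Acot9* from -0.0057 to 0.12, *Ivd* from -0.021 to 0.18, *Eci1* from -0.11 to 0.046, and *Etfb* from -0.18 to 0.039. In icosapent ethyl–treated versus HFD mice, *Hadhb* was at 1.16e-05 unscaled, at 0.029 with the chromaffin covariate, and from -0.16 to 0.040 with 1 mouse left out, where *Acadl* ranged from -0.046 to 0.11. The causes were not tested. With the replicate block in icosapent ethyl–treated versus HFD mice, 0 of the 34 genes passed, as did 0 of all 15913 genes. By edgeR's test, 1 of the 34 genes had an unadjusted p below 0.05, and 696 of all 15913 genes did. The block changed no call. *Cpt1b*, with at most 2 counts in a mouse, did not pass the filter on low counts.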
